A study of Mus musculus with 61 samples.

Results

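The axon guidance ligands and receptors measured here were 59 of the 16358 mouse genes that had a named probe on the array, and each was read by 1 of the 41174 non-control probes. A gene was included when its current RefSeq symbol, reached through the RefSeq identifier printed for the probe, belonged to the ephrin (Efna, Efnb), Eph receptor (Epha, Ephb), semaphorin (Sema), plexin (Plxna to Plxnd), Slit, Robo, netrin (Ntn) or Unc5 families. For the 19 genes with a second probe, the probe with the higher mean signal was used. All 59 genes had a signal well above background on at least 1 array, and 51 had one in all 61 fractions. The other 8 were Epha1 and Unc5d (60 fractions each), Epha8 and Ntn5 (55 each), Sema3d (51), Epha10 and Ntn4 (49 each), and Ntn1 (7).

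Axon guidance genes encode cues that steer growing axons and the receptors that read them. Ephrins are bound to the cell membrane and act on Eph receptor tyrosine kinases in the neighbouring cell; ephrin-A ligands are anchored by lipid and ephrin-B ligands cross the membrane. Slits are secreted repellents read by Robo receptors, netrins attract axons through Dcc and repel them through Unc5 receptors, and semaphorins act mostly through plexins, with neuropilins as co-receptors for the secreted class 3 members. In the adult brain the same genes are known from synapses, spine remodelling, vessels and myelinating cells.

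Whole brains of C57BL/6J male mice aged 8 weeks, 1 mouse per series, were cut into 1 mm fractions, each of 200 sections of 5 µm. Series C (13 fractions) and Co (16) were coronal and ran from posterior to anterior, H (6) and Ho (7) were horizontal and ran from dorsal to ventral, and S (9) and So (10) were sagittal and ran from left to right. Fraction numbers here are those of the labels, in which series S runs from 2 to 10. Fractions of both mice of a plane formed 28 pairs (c1 to c13, h1 to h6 and s1 to s9), and 5 fractions had no partner. The study chose the partners by their correlation on these arrays, and by fraction order where several matched. The labels name no treatment and no genotype other than the strain, so position in the brain was the only condition, and each plane rested on 2 mice.

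Total RNA was labelled with Cy3 and read on 61 single-colour arrays. Values are log2 intensities relative to the 75th percentile of the same array, so that 0 is that percentile and a difference of 1 is a 2-fold difference. The 75th percentile signal ran from 739.7 to 1971 between arrays, and 57.9% to 73.1% of probes were well above background. Partner fractions correlated with r between 0.98 and 0.994 over all detected probes and between 0.973 and 0.997 over the 59 genes (no test). Since partners were chosen by this correlation, a high r was built in and does not measure agreement between mice. Landmark genes placed the fractions. The cerebellar genes Gabra6, Pcp2 and Cbln3 had a mean of 3.54 to 3.62 in c2 to c4 and -2.17 in c6, the olfactory bulb list rose from -1.13 in c11 to 3.09 in c12, and the hypothalamic list peaked at 2.25 in c8. The neuron list (Rbfox3, Snap25, Stmn2, Syt1) was high everywhere, from 3.89 to 5.13. All 5 pituitary markers were also detected, with a list mean from -7.43 to -2.52. In bulk fractions, fewer cells of a type and less RNA per cell cannot be told apart.

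**Figure D1:**
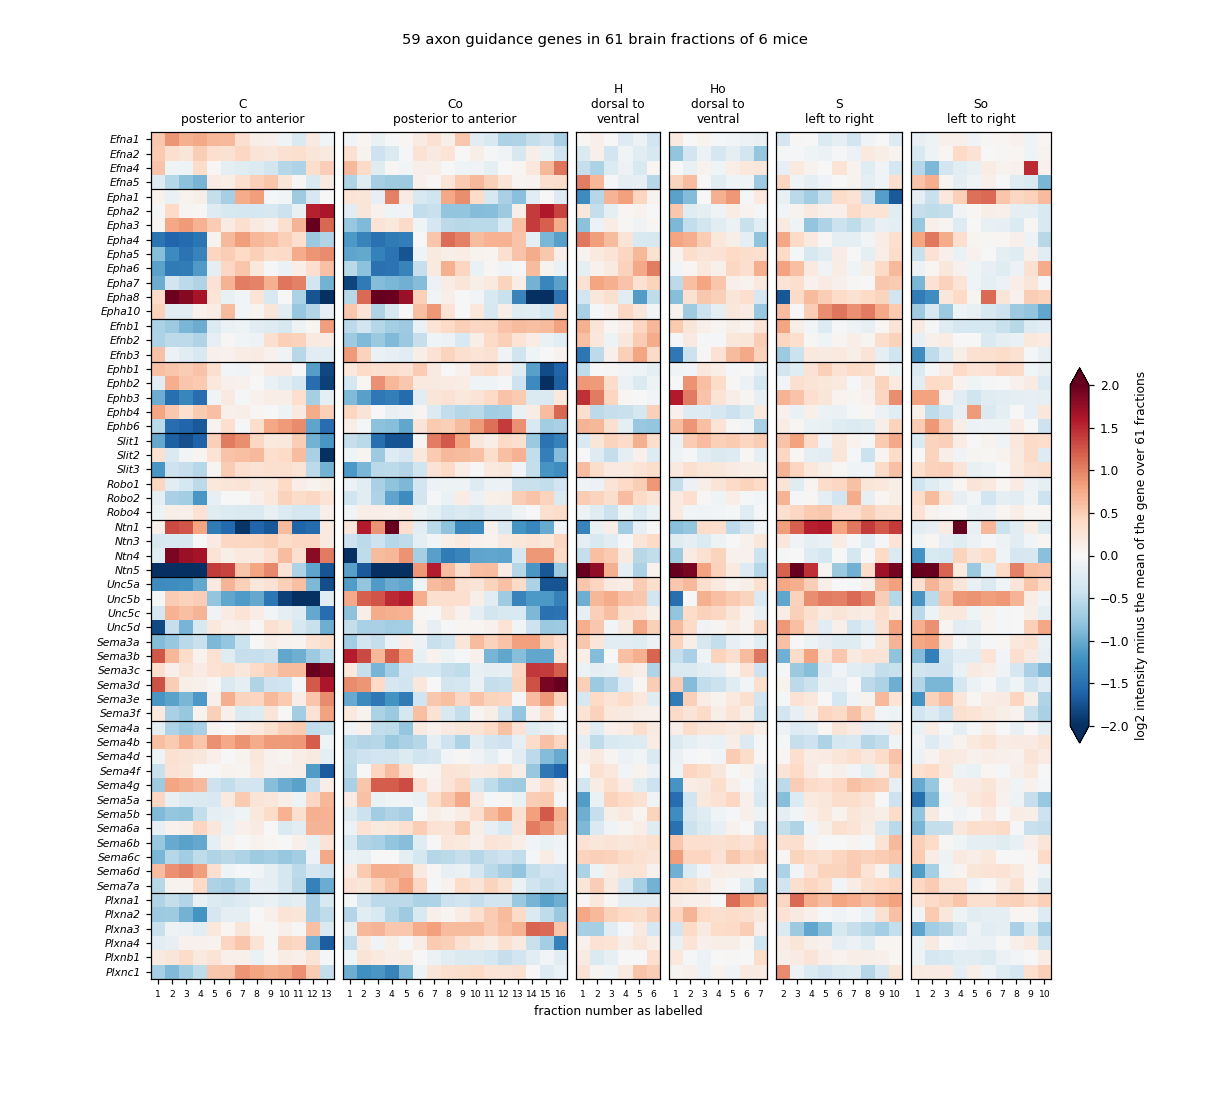
Heat map of the 59 genes (rows, grouped by family) in the 61 fractions (columns, by mouse and fraction number); colour gives the log2 intensity minus the mean of that gene over all fractions. Slit1, Slit3, Epha4, Epha5, Epha6 and Epha7 are blue in the posterior coronal pairs c1 to c4 of both mice, and Epha8 is red there.

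The level of most axon guidance genes differed between the 28 pairs of fractions. Planes came from different mice and mostly different scan days, so this F mixes such offsets with position. With differences taken within planes, F called 52 genes with scan day as a fixed term, beside 64.5% of probes. With slide as a fixed term it called 44, beside 47.8%. The limma moderated F-test over the 28 pairs called 48 of the 59 genes (81.4%) at an adjusted p under 0.05, beside 61.3% of the 36573 detected probes. The median F was 6.75 for the 59 genes and 2.58 for all detected probes. Choosing partners by correlation narrows the spread within pairs. With fractions paired by label number, the median F of the 59 genes was 2.73, and 37 were called, beside 43.5% of probes. The span of a gene, its highest minus its lowest level over 61 fractions, was 0.84 to 8.15 log2 units, with a median of 2.29 beside 2.13 for all detected probes. Unc5a, a netrin receptor, had the largest F among the 59 (39.7, adjusted p = 1.17e-14). It was followed by the secreted ligand Slit1 (30.4), the receptors Ephb2 (27.1), Epha4 (23.6) and Ephb1 (23.4), the netrin Ntn5 (21.3), the semaphorin Sema6d (20.8) and the receptor Epha6 (20.0). Within 1 plane the test had fewer pairs and called 46 genes in the coronal plane, 12 in the horizontal plane and 8 in the sagittal plane. The shares of all detected probes were 37.7%, 12.6% and 6.59%.

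Along the posterior to anterior axis, 29 genes were higher in the anterior fractions (c10 to c13) and 15 were higher in the posterior ones (c1 to c4), so 44 of 59 (74.6%) were called beside 47.6% of all detected probes (20.2% higher, 27.5% lower). All 44 had the same sign in both mice, and in 16 of them the 8 anterior and 8 posterior arrays did not overlap. Neither count is given for all detected probes, so neither sets the 59 genes apart. The median difference was 0.29 over the 59 genes and -0.10 over all detected probes. Slides followed the position within each series, and with slide as a fixed term 15 genes (8 higher, 7 lower) were past the threshold, beside 9.77% of probes. In the comparison of the middle pairs (c5 to c9) with both ends, 25 genes were higher in the middle and 9 were lower, so 34 (57.6%) were called beside 35.2% of probes (15.3% higher, 19.9% lower). With fractions paired by label number in place of the study's table, 16 genes were called, beside 12.9% of probes.

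**Figure D2:**
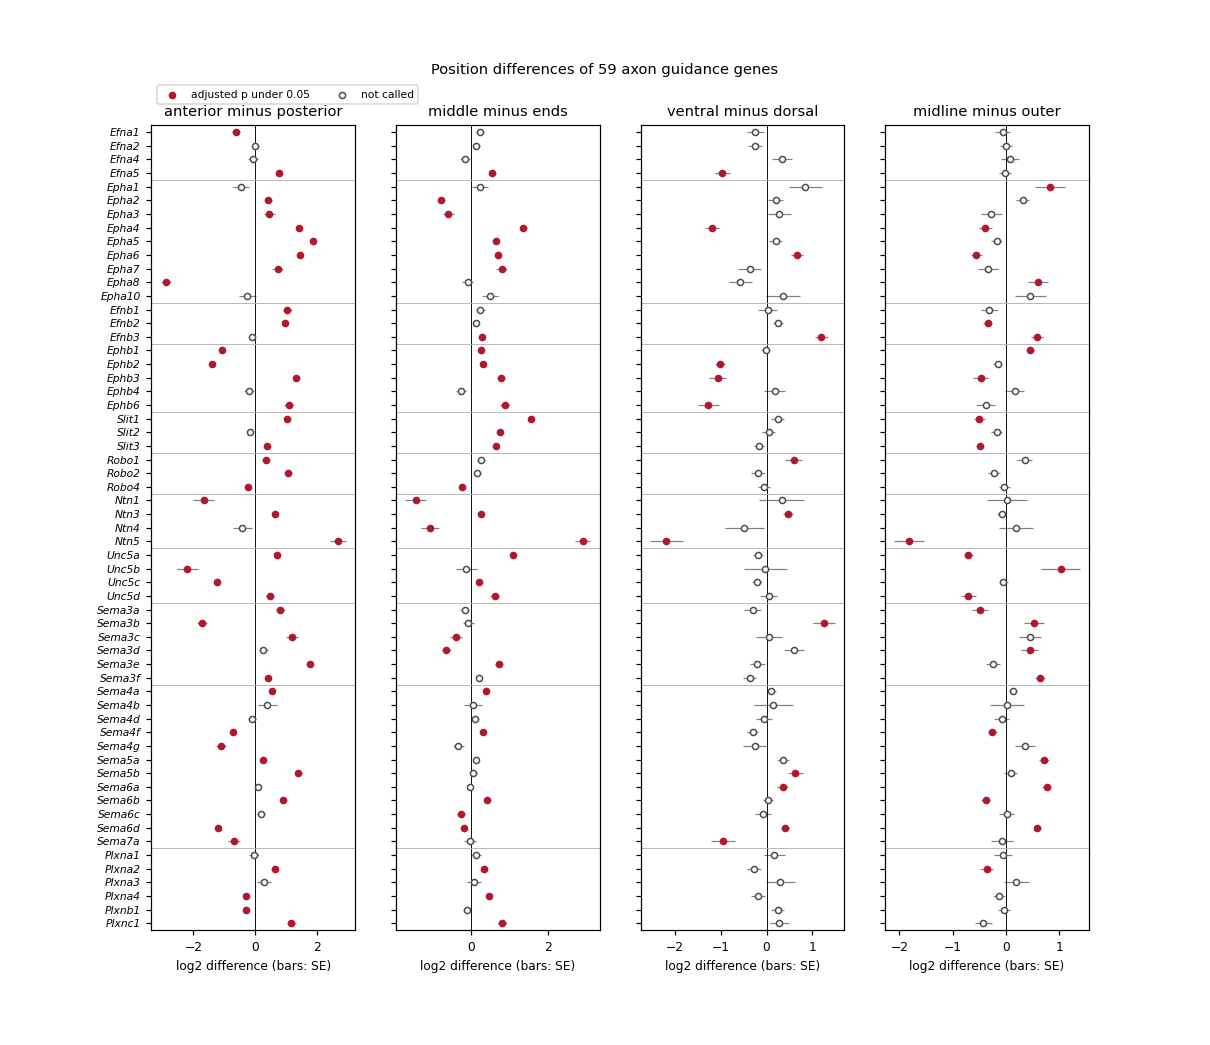
Log2 differences of the 59 genes in 4 comparisons (x axes; bars are standard errors of the fit), with families separated by grey lines; filled red points have an adjusted p under 0.05. Ntn5 lies far out in all 4 panels, and all 3 Slits lie to the right of 0 for middle minus ends.

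The Slits, secreted repellents of axons and migrating cells, were higher in the middle coronal pairs than in the mean of both ends. All 3 were called for middle minus ends. Slit1 ranged from -1.26 to -0.09 (median -0.68) in the 10 middle arrays and from -3.07 to -0.83 (median -2.41) in the 16 end arrays. The ranges overlapped: pair c11, counted with the ends, was at -0.83 in C and -0.94 in Co. The difference was 1.56 ± 0.08 (SE; 1.54 in mouse C, 1.57 in Co; adjusted p = 1.09e-15). Slit3 was 0.65 higher in the middle (adjusted p = 1.48e-10) and Slit2 0.74 higher (adjusted p = 6.43e-09). For both, pairs c10 and c11, counted with the ends, lay within the range of c5 to c9. They were at -0.571 and -0.581 for Slit3 (range -1.009 to -0.438) and at 0.731 and 0.965 for Slit2 (0.598 to 0.992). For anterior minus posterior, Slit1 (1.05) and Slit3 (0.39) rose, while Slit2 had a difference of -0.16 and was not called. The rise lay in c10 and c11. In c12 and c13, Slit1 (-2.157 and -2.638) and Slit3 (-1.336 and -1.9) lay below their highest posterior pairs (-2.096 and -1.309).

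Among the Robo receptors, which bind Slits, Robo2 was higher anteriorly by 1.08 ± 0.11 (adjusted p = 1.46e-09) and Robo1 by 0.35 ± 0.13 (adjusted p = 0.029). Robo4, known from endothelium, was lower anteriorly by a small amount (-0.24, adjusted p = 0.0412), a call lost under median scaling (-0.09) and under normexp with quantile normalization (-0.21), and lower in the middle (-0.25, adjusted p = 0.0134), a call lost under the latter. Its profile had its highest correlation with the mural cell list (r = 0.74 over 61 fractions). The second Robo2 probe gave a larger anterior difference, 2.06.

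The 4 Unc5 receptors, which mediate repulsion from netrins, split for anterior minus posterior, with 2 higher and 2 lower. For middle minus ends, 3 were higher and 0 lower. Unc5a was higher in the middle by 1.09 ± 0.06 (adjusted p = 6.01e-15), with middle arrays from 3.15 to 3.93 (median 3.55) and end arrays from 1.47 to 3.86 (median 2.25). Both mice followed one course, at 2.00 to 2.46 in c1, 3.93 (C) and 3.89 (Co) in c6, and 1.47 and 1.52 in c13. Unc5b was higher posteriorly, where the 8 arrays ran from -0.50 to 1.09 (median 0.38) against -3.21 to -0.69 (median -1.63) anteriorly, without overlap. The difference for anterior minus posterior was -2.20 ± 0.33 (adjusted p = 1.74e-06), close in the mice (-2.20 in C and -2.19 in Co). The anterior course of Unc5b differed between them, at -3.215 and -0.689 in C12 and C13 but -1.629 and -1.622 in the partners Co14 and Co15. C13 was on another slide and scan day than the rest of C. Unc5c was also lower anteriorly (-1.24 ± 0.08, adjusted p = 2.1e-14) and Unc5d was higher (0.48 ± 0.13, adjusted p = 0.00283). The second Unc5d probe was not called (0.40, adjusted p = 0.129). Unc5a was called higher anteriorly by the mean of c10 to c13, though its c13 mean (1.499) lay below all of c1 to c4 (2.063 to 2.229).

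The netrins, laminin-related guidance ligands, included dim probes, and only Ntn3 was well above background in all 61 fractions. Ntn5 was at -8.35 to -5.11 (median -7.05) in the 8 posterior arrays, only 2 of which were well above background. It was at -5.15 to -2.80 (median -4.27) in the 8 anterior arrays and at -3.08 to -1.86 (median -2.60) in the 10 middle arrays, all of them well above background. Because 6 posterior arrays were not well above background, the sizes of both differences are uncertain. Each such array was set to the higher of its own value and the lowest signal well above background on that array. This moved the posterior mean only from -6.77 to -6.76, so it sets no bound on the posterior level. With these values the anterior level was about 6.38-fold higher than the posterior one (adjusted p of the fit = 2.37e-10). The middle level was about 7.46-fold higher than that of the ends (adjusted p of the fit = 1.43e-12). Its profile followed that of the isocortex list (Cux2, Lamp5, Rorb, Tbr1) with r = 0.905 over 61 fractions. Ntn1, the classical netrin, was well above background in 4 of 8 posterior arrays and 1 of 8 anterior ones, and in 0 of 10 middle arrays against 5 of 16 end arrays. The fit called it lower in both comparisons, but many arrays on each side were not well above background, so no size is given. Ntn4, known from vessel basement membranes, was lower in the middle by 1.08 on the log2 scale (-1.08 ± 0.24, adjusted p = 0.000718), and 9 of 10 middle arrays were well above background. Ntn3 was higher anteriorly by 0.63 (adjusted p = 9.52e-08).

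**Figure D3:**
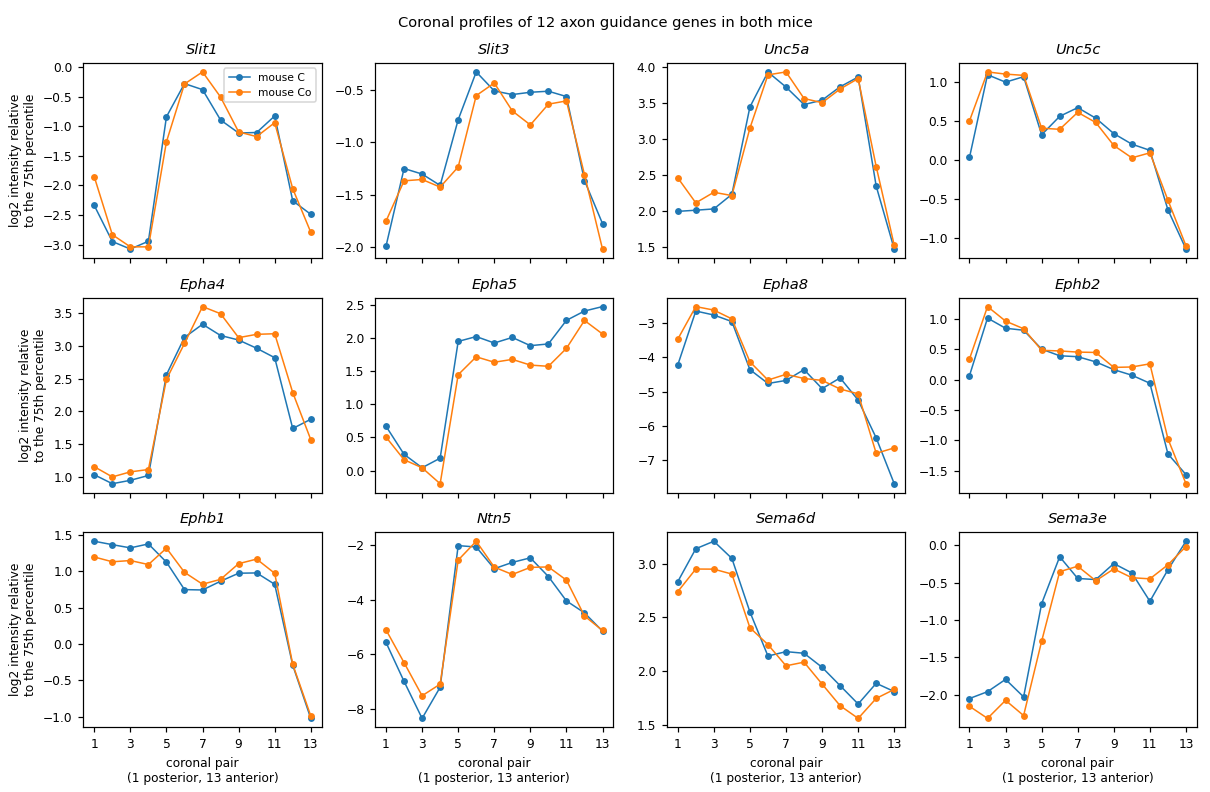
Log2 intensity relative to the 75th percentile (y axes, separate scales) of 12 genes in the 13 coronal pairs from posterior to anterior, with mouse C in blue and mouse Co in orange. Slit1, Epha4, Epha5, Ntn5 and Sema3e step up between pairs 4 and 5 in both mice, and Unc5a, Ephb1 and Ephb2 drop between pairs 11 and 12.

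Of the 9 EphA receptors, 6 were higher anteriorly, Epha8 was lower, and Epha1 and Epha10 were not called. Epha5 ran from 1.57 to 2.47 (median 2.16) in the anterior arrays and from -0.20 to 0.67 (median 0.18) in the posterior ones. All 8 anterior arrays lay above all 8 posterior ones. The difference was 1.89 ± 0.10 (1.98 in C, 1.81 in Co; adjusted p = 1.16e-16), and it was still called with slide as a fixed term. Epha6 was at -4.06 to -3.32 anteriorly and at -5.44 to -4.76 posteriorly, 1.47 ± 0.10 apart (adjusted p = 4.52e-14). Epha4, which binds ephrins of both classes, was 1.42 ± 0.11 higher anteriorly (adjusted p = 2.27e-12) and 1.36 ± 0.09 higher in the middle (adjusted p = 2.02e-13). Its middle arrays ran from 2.49 to 3.60 (median 3.13) and its end arrays from 0.90 to 3.19 (median 1.36).

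Epha8 had the opposite layout. It ran from -4.23 to -2.53 (median -2.83) in the posterior arrays and from -7.68 to -4.61 (median -5.80) in the anterior ones, 5 of 8 of which were well above background. The groups did not overlap, and the difference was -2.89 ± 0.17 (-2.81 in C, -2.97 in Co; adjusted p = 6.4e-15). Its peaks were partner fractions, C2 and Co3, and its profile followed the cerebellum list with r = 0.73. Epha2 was lower in the middle (-0.79 ± 0.09, adjusted p = 4.66e-08) and rose between c11 and c12 by 1.70 in C and 2.13 in Co. Its profile was most like that of the olfactory bulb list (Cdhr1, Doc2g, Eomes, Tbx21; r = 0.75; -0.12 to 0.93 within the 6 series).

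Of the 5 EphB receptors, 2 were lower and 2 were higher anteriorly. Ephb1 (-1.08 ± 0.07, adjusted p = 4.67e-14) and Ephb2 (-1.39 ± 0.08, adjusted p = 1.28e-15) were lower anteriorly. Most of the Ephb1 difference lay in c12 (-0.285) and c13 (-1.004). Its pairs c10 (1.071) and c11 (0.895) were closer to c1 to c4 (1.232 to 1.303). Ephb2 ran from 0.07 to 1.21 (median 0.85) posteriorly and from -1.72 to 0.26 (median -0.52) anteriorly, and both receptors had their lowest coronal level in c13. Ephb3 (1.34 ± 0.13, adjusted p = 2.46e-10) and Ephb6, a kinase-inactive receptor (1.10 ± 0.16, adjusted p = 1.05e-06), were higher anteriorly, and Ephb4 (-0.18) was not called. Ephb3 ran from 0.31 to 1.53 (median 0.94) anteriorly and from -0.58 to -0.02 (median -0.44) posteriorly, without overlap.

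Of the 7 ephrin ligands, 3 were higher anteriorly and 1 was lower. Efna5 was 0.78 ± 0.11 higher anteriorly (adjusted p = 6.15e-07), Efnb1 1.04 ± 0.15 (adjusted p = 5.74e-07) and Efnb2 0.96 ± 0.08 (adjusted p = 2.91e-11). Efna1 was lower (-0.61, adjusted p = 0.000451). The differences of Efna2 (0.01), Efna4 (-0.07) and Efnb3 (-0.10) were not called.

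Among the 6 secreted class 3 semaphorins, 4 were higher anteriorly and 1, Sema3b, was higher posteriorly. Sema3e, a ligand of the plexin Plxnd1, ran from -0.75 to 0.06 (median -0.35) in the anterior arrays and from -2.32 to -1.79 (median -2.06) in the posterior ones. The difference was 1.77 ± 0.12 (1.61 in C, 1.92 in Co; adjusted p = 1.49e-13). Sema3b ran from -1.81 to -1.29 (median -1.77) anteriorly and from -0.69 to 0.56 (median -0.02) posteriorly, a difference of -1.71 ± 0.17 (adjusted p = 4.68e-10). Sema3c was 1.19 ± 0.20 higher anteriorly (adjusted p = 7.27e-06), and it rose by 1.67 in C and 1.57 in Co between c11 and c12. The neuroblast list (Cd24a, Dcx, Sox11), the list most like its profile (r = 0.60), rose at that step from -1.26 to 0.57, and its part in the result was not tested. Sema3d was lower in the middle (-0.66 ± 0.12, adjusted p = 6.92e-05), and its highest level of all was -2.63 in Co16. Its profile correlated with the meningeal fibroblast list (Col1a1, Col1a2, Col3a1, Dcn, Lum, Slc6a13, Aldh1a2) with r = 0.83. Of that list 6 of 7 genes were also lower in the middle, where its mean ran from 0.05 to 1.24 against -0.05 to 2.18 at the ends, and its part in the Sema3d result was not tested.

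The 12 membrane-bound semaphorins had 4 members higher and 4 lower anteriorly. Sema6d, a transmembrane semaphorin that signals through Plxna1, was lower anteriorly by 1.21 on the log2 scale (-1.21 ± 0.06, adjusted p = 2.25e-16). Its 8 anterior arrays (1.56 to 1.89) lay below its 8 posterior arrays (2.74 to 3.21). Sema5b was higher anteriorly by 1.40 ± 0.11 (adjusted p = 3.11e-12) and Sema6b by 0.91 ± 0.07 (adjusted p = 9.64e-12). Sema4g (-1.11 ± 0.17, adjusted p = 2.73e-06) and Sema4f (-0.71 ± 0.08, adjusted p = 9.56e-09) were lower. For Sema4f only c12 (0.02) and c13 (-0.591) were low. Its pairs c10 (1.112) and c11 (1.171) lay within the range of c1 to c4 (0.73 to 1.391). The neuroblast list was the one most like Sema5b (r = 0.71; 0.001 to 0.839 within the 6 series). It was at -1.32 to 0.71 anteriorly against -2.68 to -1.46 posteriorly, with 2 of 3 genes higher. Its part in the Sema5b result was not tested. The oligodendrocyte list (Mbp, Mog, Mag, Mobp, Cnp, Cldn11) was lower anteriorly for 6 of 6 genes, with a mean of 2.20 to 3.55 there and 3.97 to 4.92 posteriorly. Sema6d (r = 0.80), Efnb3 (0.73) and Ephb1 (0.73) had their highest correlation with this list, and its part in their results was not tested. Within the 6 series r was 0.687 to 0.995, 0.547 to 0.994 and 0.159 to 0.964.

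Of the 6 plexins, the receptors of semaphorins, Plxnc1 (1.17 ± 0.15, adjusted p = 5.51e-08) and Plxna2 (0.64 ± 0.11, adjusted p = 7.98e-06) were higher anteriorly. Plxna4 (-0.30) and Plxnb1 (-0.29) were slightly lower; both calls were lost under median scaling (-0.15 each), and Plxna4 turned to 0.03 under normexp with quantile normalization. Plxna1 (-0.05) and Plxna3 (0.29) were not called.

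The coronal profiles did not change evenly. In 17 of the 59 genes the largest step between neighbouring pairs fell between c4 and c5, and in 24 it fell between c11 and c12. These counts are not given for all detected probes. Between c4 and c5, 17 genes rose by over 0.5 in both mice, beside 7.84% of all detected probes, and 6 fell by over 0.5, beside 13.4%. The 6 that fell were Epha8, Ntn1, Ntn4, Sema4g, Unc5b and Unc5c. Ntn1 was not well above background in any fraction of this step. Ntn5 was not well above background in c4 of either mouse, so the size of its rise is uncertain (measured steps of 5.19 in C and 4.54 in Co). Slit1 rose by 2.10 and 1.77, Epha5 by 1.76 and 1.64, and Epha4 by 1.54 and 1.38. The cerebellum list fell at the same step from 3.56 to 0.74 and the isocortex list rose from -2.49 to -0.66. In mouse C the c4 to c5 step lay between slides, whereas in Co both of its fractions were on 1 slide. The c11 to c12 step lay on 1 slide in C, but in Co it crossed slides and skipped the unpaired fraction Co13, so that it spanned 1 more fraction than the other steps. Between c11 and c12, 9 genes rose by over 0.5 in both mice, beside 9.8% of probes, and 17 fell, beside 9.63%. The 17 included all 3 Slits, Unc5a, Unc5c and 7 Eph receptors, with Unc5a falling by 1.51 in C and 1.22 in Co (steps of -1.51 and -1.22), and Slit1 by steps of -1.43 and -1.12. These steps were chosen after the profiles were seen, so no test is given.

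The 250 bases before the RefSeq start (GRCm38.p6) are shown for 8 genes, so that genes higher anteriorly can be read beside genes higher posteriorly. Of the 59 genes, 50 had an entry in the RefSeq promoter table (63 starts); those with none were Efnb3, Ntn1, Plxna1, Plxna4, Sema3b, Sema3f, Sema6a, Slit1 and Unc5d. These 8 were taken, after their values were seen, from those whose window held at most 30 bases of the gene itself. Sequences run 5′ to 3′ on the strand of the gene, and capitals mark the letters GGGCGG (the GC box, or CCGCCC on the other strand), CAGCTG (an E-box) and TATAAA (or TTTATA). The sets follow the mean of c10 to c13 against that of c1 to c4, not each pair. Slit3 was at -0.571 and -0.581 in c10 and c11 but at -1.336 and -1.9 in c12 and c13, against -1.874 to -1.309 in c1 to c4. By these means Epha4, Ntn5, Slit3 and Sema3e were higher anteriorly:
Epha4, chr1:77515089-77515338, minus strand: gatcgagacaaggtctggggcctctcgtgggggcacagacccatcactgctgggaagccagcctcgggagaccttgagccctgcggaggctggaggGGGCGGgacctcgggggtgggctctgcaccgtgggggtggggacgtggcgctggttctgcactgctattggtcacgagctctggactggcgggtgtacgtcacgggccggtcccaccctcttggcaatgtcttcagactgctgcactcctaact
Ntn5, chr7:45683772-45684021, plus strand: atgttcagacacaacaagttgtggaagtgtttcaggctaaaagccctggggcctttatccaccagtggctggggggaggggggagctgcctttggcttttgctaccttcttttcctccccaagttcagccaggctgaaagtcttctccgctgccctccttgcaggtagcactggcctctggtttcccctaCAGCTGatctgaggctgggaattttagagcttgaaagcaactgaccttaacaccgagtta
Slit3, chr11:35121206-35121455, plus strand: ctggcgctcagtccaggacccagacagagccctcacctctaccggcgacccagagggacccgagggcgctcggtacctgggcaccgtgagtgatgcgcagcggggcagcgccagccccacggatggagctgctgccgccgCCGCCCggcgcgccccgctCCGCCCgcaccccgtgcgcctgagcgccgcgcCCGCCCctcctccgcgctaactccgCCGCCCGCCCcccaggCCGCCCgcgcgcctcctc
Sema3e, chr5:14025026-14025275, plus strand: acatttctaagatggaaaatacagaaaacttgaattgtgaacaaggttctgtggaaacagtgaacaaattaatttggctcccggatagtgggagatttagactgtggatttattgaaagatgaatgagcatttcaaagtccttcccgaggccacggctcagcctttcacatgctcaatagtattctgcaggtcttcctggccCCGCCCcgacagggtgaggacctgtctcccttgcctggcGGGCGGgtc
By the same means Ephb1, Unc5c, Unc5b and Sema6d were higher posteriorly:
Ephb1, chr9:102354694-102354943, minus strand: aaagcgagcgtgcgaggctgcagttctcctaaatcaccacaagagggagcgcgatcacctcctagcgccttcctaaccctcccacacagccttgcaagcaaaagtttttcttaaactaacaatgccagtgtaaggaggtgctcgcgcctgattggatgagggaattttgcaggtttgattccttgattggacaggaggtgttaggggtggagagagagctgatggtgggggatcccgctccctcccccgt
Unc5c, chr3:141465314-141465563, plus strand: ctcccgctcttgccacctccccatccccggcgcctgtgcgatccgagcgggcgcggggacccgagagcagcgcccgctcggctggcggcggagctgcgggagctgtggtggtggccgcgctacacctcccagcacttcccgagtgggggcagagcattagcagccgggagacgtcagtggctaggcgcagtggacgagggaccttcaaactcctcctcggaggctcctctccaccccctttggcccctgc
Unc5b, chr10:60831582-60831831, minus strand: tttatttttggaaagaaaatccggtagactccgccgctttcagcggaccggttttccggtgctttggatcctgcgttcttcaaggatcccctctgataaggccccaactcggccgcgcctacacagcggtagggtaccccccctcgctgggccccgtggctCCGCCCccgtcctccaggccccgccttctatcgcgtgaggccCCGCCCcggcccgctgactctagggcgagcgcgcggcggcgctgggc
Sema6d, chr2:124089719-124089968, plus strand: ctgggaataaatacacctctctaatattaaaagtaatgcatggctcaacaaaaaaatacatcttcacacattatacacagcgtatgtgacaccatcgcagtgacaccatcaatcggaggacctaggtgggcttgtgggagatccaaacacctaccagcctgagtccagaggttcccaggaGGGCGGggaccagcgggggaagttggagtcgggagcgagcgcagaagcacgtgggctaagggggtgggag

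The windows differed in base composition within each set. Among the anterior genes, GC content ran from 48.0% (Sema3e) and 52.8% (Ntn5) to 66.0% (Epha4) and 78.8% (Slit3), and among the posterior ones from 52.4% (Sema6d) and 54.0% (Ephb1) to 66.8% (Unc5b) and 71.2% (Unc5c). GGGCGG was found 6 times before Slit3, 2 times before Sema3e and Unc5b, and 1 time before Epha4 and Sema6d. CAGCTG was found only before Ntn5 among these 8, and TATAAA before none of them. Over all 63 starts, 42 windows (66.7%) held GGGCGG, beside 32.7% of the 32851 windows in the table. CAGCTG was in 15.9% beside 13.0%, and TATAAA in 3.2% beside 12.4%. The median GC content was 64.0% for the windows of these genes and 52.4% for all windows.

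From dorsal (h1, h2) to ventral (h5, h6), 8 genes were higher ventrally and 7 were higher dorsally, 15 of 59 (25.4%) beside 14.3% of all detected probes (8.47% higher, 5.81% lower). In 14 of the 15 the 4 ventral and 4 dorsal arrays did not overlap, a count not given for all detected probes. With mouse as a block the count was 23, beside 27.2% of probes, and with slide as a fixed term it was 6, beside 4.42%. Of the ephrins, Efnb3, a transmembrane ligand of Epha4 and EphB receptors, was higher ventrally. It was at 4.23 and 3.82 in the ventral fractions H5 and H6 and at 4.19 and 3.89 in Ho6 and Ho7. In the dorsal fractions it was at 1.99 and 2.91 in H1 and H2 and at 3.01 and 3.46 in Ho2 and Ho3, all below the ventral arrays. The difference was 1.19 ± 0.15 (1.58 in H, 0.81 in Ho; adjusted p = 5.71e-07). All 6 oligodendrocyte genes were higher ventrally too, with a list mean of 3.66 to 3.95 against 1.90 to 3.53, and their part in the Efnb3 result was not tested. Efna5 went the other way, with ventral arrays at 0.85 to 1.49 below dorsal arrays at 1.58 to 2.60 (-0.96 ± 0.16, adjusted p = 4.1e-05).

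EphB receptors were higher dorsally in 3 of 5 cases and ventrally in none. The differences were -1.27 ± 0.23 for Ephb6 (adjusted p = 0.000146), -1.07 ± 0.18 for Ephb3 (adjusted p = 7.31e-05) and -1.01 ± 0.11 for Ephb2 (adjusted p = 8.14e-08). Ephb6 ran from -0.24 to 0.47 ventrally and from 1.13 to 1.42 dorsally, and Ephb3 from 0.81 to 1.01 and from 1.53 to 2.43. Epha4 fell steadily through H, at 3.55, 3.33, 3.12, 2.76, 2.19 and 2.18 from H1 to H6, and through Ho from 3.28 to 1.69 (-1.18 ± 0.16, adjusted p = 1.92e-06). Epha6 rose over the same fractions, from -4.12 in H1 to -2.92 in H6 (0.66 ± 0.14, adjusted p = 0.000699), but its second probe was not called (0.26, adjusted p = 0.688). All 4 isocortex genes were higher dorsally (list mean -0.35 to 0.60 against -0.79 to -0.68). This list was most like Ephb3 (r = 0.93), Ephb6 (0.79), Epha4 (0.90) and Ntn5 (0.905). The cerebellum list, most like Ephb2 (0.60), was higher dorsally for 3 of 3 genes. The part of both lists in these results was not tested.

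Ntn5 had the largest dorsal level of the 59 genes relative to its ventral level. It was at -2.62 to -0.55 in the dorsal arrays and at -4.06 to -3.35 in the ventral ones, and its highest level in any fraction was -0.20 in Ho1 (-2.18 ± 0.36, adjusted p = 5.38e-05). Sema3b ran from -0.13 to 0.40 ventrally and from -1.64 to -0.63 dorsally (1.26 ± 0.24, adjusted p = 0.0003), and Sema5b from -0.33 to 0.23 and from -1.19 to -0.46 (0.63 ± 0.16, adjusted p = 0.00455). Without H1 or H6 the Sema5b call was lost, with an adjusted p of up to 0.059, and its second probe was not called (0.33, adjusted p = 0.0705). All 3 neuroblast genes were higher ventrally (list mean -0.65 to -0.14 against -1.67 to -1.50), and their part in the Sema5b result was not tested. The choroid plexus list (5 of 6 genes higher ventrally; mean -1.14 to -0.36 against -3.99 to -0.15) and the meningeal list (3 of 7; 0.73 to 2.00 against 0.62 to 1.83) moved in the same direction as Sema3b. So did the lists most like its profile, medulla and pons (r = 0.74; 4 of 5 genes; -4.61 to -3.12 against -7.13 to -6.72) and oligodendrocyte (r = 0.65; 6 of 6 genes). The part of these 4 lists in the Sema3b result was not tested. Sema7a was higher dorsally by 0.95 (-0.95 ± 0.27, adjusted p = 0.0125), and Robo1 was higher ventrally (0.59 ± 0.19, adjusted p = 0.0285), a call lost under normexp with quantile normalization.

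**Figure D4:**
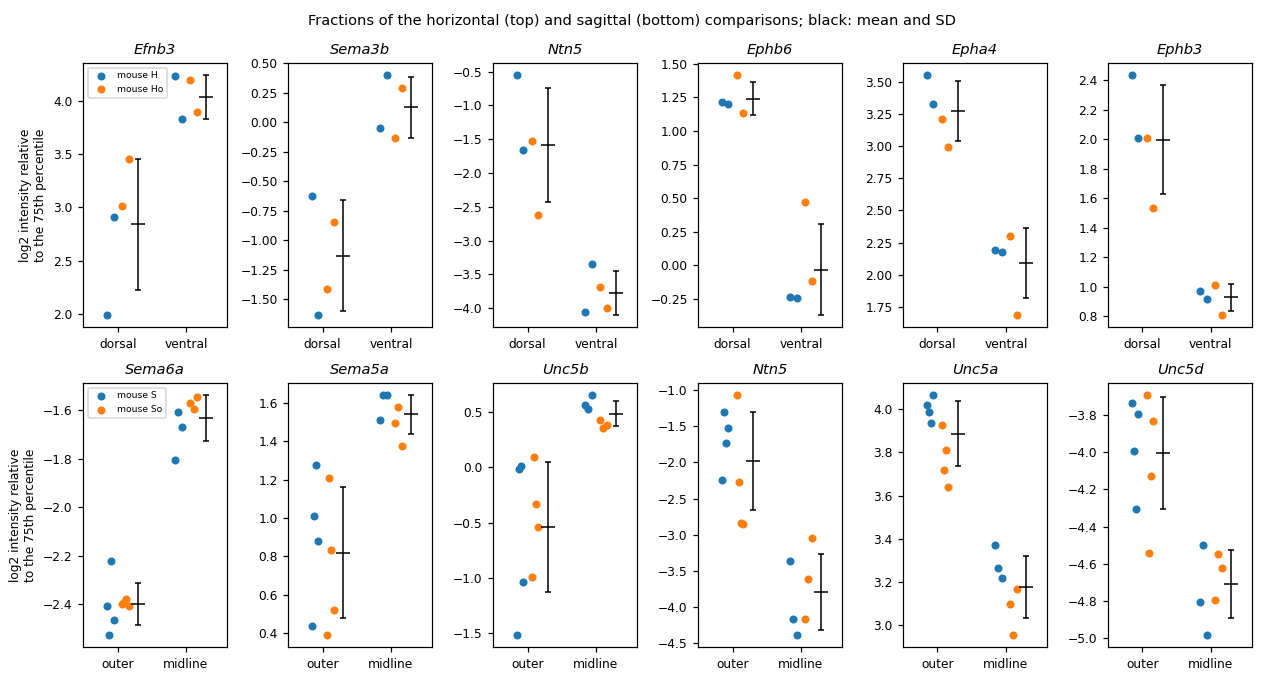
Log2 intensities relative to the 75th percentile (y axes, separate scales) of 6 genes in the dorsal and ventral arrays (top row, 4 against 4) and 6 genes in the outer and midline arrays (bottom row, 8 against 6); points are arrays, coloured by mouse, and black marks are the mean and SD. Unc5d is the panel in which the groups meet; in the others they lie apart.

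From the outer sagittal fractions (s1, s2, s8, s9) to the midline (s4 to s6), 11 genes were higher at the midline and 13 were lower. These 24 of 59 genes (40.7%) stood beside 19.6% of all detected probes (10.6% higher, 9.01% lower). In 11 of them the 6 midline and 8 outer arrays did not overlap, a count not given for all detected probes. The balance of directions depended on the scaling. Relative to the median of each array, 6 were higher and 15 lower, beside 22.6% of probes called. After normexp and quantile normalization there were 7 and 13, beside 17.5%. Without S10, the right edge of series S, 14 genes were called.

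The secreted Sema3f and the membrane-bound Sema6a, Sema5a and Sema6d were higher at the midline. Sema6a ran from -1.81 to -1.55 (median -1.60) at the midline and from -2.53 to -2.22 (median -2.40) in the outer fractions (0.77 ± 0.09; 0.71 in S, 0.82 in So; adjusted p = 6.24e-08). Sema5a ran from 1.38 to 1.64 and from 0.39 to 1.28 (0.72 ± 0.10, adjusted p = 2.14e-06), Sema3f from -2.15 to -1.69 and from -2.92 to -2.33 (0.64 ± 0.10, adjusted p = 1.94e-05), and Sema6d from 2.46 to 2.73 and from 1.55 to 2.29 (0.59 ± 0.07, adjusted p = 1.01e-07). Efnb3 (0.59) and Ephb1 (0.45) also rose. All 6 oligodendrocyte genes were higher at the midline, with a mean of 3.82 to 4.13 against 2.12 to 3.38, and their part in these results was not tested.

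Unc5b was 1.03 ± 0.36 higher at the midline (adjusted p = 0.0413) and Epha1, an Eph receptor known mainly from epithelia, 0.83 ± 0.28 (adjusted p = 0.0327). Both calls were marginal. That of Unc5b was lost without any 1 of 11 sagittal arrays (adjusted p up to 0.102) and that of Epha1 without any 1 of 8 (up to 0.192), and both were lost under median scaling and with narrower groups.

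Unc5a, Unc5d, Slit1, Slit3, Epha6 and Ntn5 were higher laterally. Unc5a formed a trough in both mice, from 4.02 in S2 through 3.22 in S7 to 4.07 in S10, and from 3.93 in So2 through 2.96 in So6 to 3.64 in So10. Its midline arrays (2.96 to 3.37) lay below its outer arrays (3.64 to 4.06), by 0.71 on the log2 scale (-0.71 ± 0.08, adjusted p = 1.09e-07). Ntn5 ran from -4.39 to -3.04 at the midline and from -2.86 to -1.07 outside (-1.82 ± 0.28, adjusted p = 9.26e-06). The difference was -0.71 ± 0.14 for Unc5d (adjusted p = 0.000354), -0.56 ± 0.10 for Epha6 (adjusted p = 0.00015), -0.50 ± 0.11 for Slit1 (adjusted p = 0.000973) and -0.49 ± 0.08 for Slit3 (adjusted p = 1.26e-05). The second probes of Unc5d and Epha6 were not called.

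Between the right (s6 to s9) and left (s1 to s4) fractions, limma called 0 of the 59 genes, beside 0.153% of all detected probes (0.112% higher, 0.041% lower). At an unadjusted p under 0.05 there were 4, and 7.6% of all detected probes. Epha4 had the smallest p among the 59 (-0.48 ± 0.11, adjusted p = 0.0749), and was the 1 gene called with mouse as a block, beside 1.62% of probes. It was also called without S3 or S4, and together with Efna5 without S10, so the count of 0 depended on single arrays. Hypothalamic landmark genes, which lie at the midline, were higher on the right in 4 of 5 cases, so the sides did not hold the midline equally. The best So match of each S fraction by number was 2, 3, 8, 7, 6, 6, 5, 3 and 2 for S2 to S10, so the data did not fix which edge of S was left.

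Of the 59 genes, 8 were called in none of these 4 comparisons: Efna2, Efna4, Epha10, Ephb4, Plxna1, Plxna3, Sema4b and Sema4d. Epha4, Epha6, Ephb3, Ntn5 and Sema6d were called in all 4 by the probe used, though the second probe of Epha6 was not called from dorsal to ventral or at the midline, and that of Sema6d was called for anterior minus posterior alone. Of the genes well above background in all 61 fractions, Sema4b (F = 0.327), Plxnb1 (0.928), a receptor of class 4 semaphorins, and its ligand Sema4d (1.08) had the smallest F. With mouse as a block, F called 57 of 59 genes, beside 86.0% of probes; Plxnb1 (F = 2.20, adjusted p = 0.0282) and Sema4d (2.69, adjusted p = 0.00863) were then called, and Sema4b was not (1.32, adjusted p = 0.252). The coronal mice differed in Sema4b. It ran from -4.03 to -2.74 (median -3.19) in C and from -4.69 to -3.36 (median -4.36) in Co. Plxnb1 stayed within 0.78 to 1.62 over all 61 fractions, the narrowest span of the 59 (0.84). Its second probe gave F = 1.90, also not called, while that of Sema4d gave 5.04 and was called.

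Some of the 59 genes followed each other closely over the 61 fractions. These correlations are descriptions over fractions that share mice and slides, with no test. Of 1711 pairs (median r = 0.01), the highest r was that of Slit3 and Unc5a (0.94; 0.63 to 0.95 within the 6 series), followed by Slit1 and Unc5a (0.90; -0.40 to 0.93) and by Ephb3 and Ntn5 (0.89; 0.81 to 1.00). Epha4 was close to Ephb3 (0.85; 0.80 to 0.94) and to Ntn5 (0.85; 0.70 to 0.92), and all 3 of these had the isocortex list as their most similar list (r = 0.926 for Ephb3, 0.905 for Ntn5 and 0.904 for Epha4). Slit1 was most like the hippocampus list (Fibcd1, Prox1, Spink8, Wfs1; 0.92; 0.84 to 0.94 within the 6 series). Unc5a was also most like it over all fractions (0.84), but with -0.425 to 0.905 within the series. The lowest r was that of Sema3d and Sema4f (-0.85; -0.93 to -0.38).

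Ligands and the receptors they bind had correlations of either sign. Of the 36 pairs listed from general knowledge, 33 were measured, with a median r of -0.02 and r above 0 in 16. The ephrin Efna5 and its receptor Epha4 had the highest r, 0.77, and it was above 0 in each of the 6 series (0.59 to 0.91). Ntn1 and Unc5b followed (0.61; 0.28 to 0.70), though Ntn1 was well above background in 7 fractions alone. Efna5 and Epha5 (0.57; -0.66 to 0.88) and Slit1 and Robo1 (0.54; -0.72 to 0.81) had pooled values that changed sign between series. At the other end, Efnb1 and Ephb1 had r = -0.67, below 0 in all 6 series (-0.90 to -0.60). So had Sema6a with Plxna2 (-0.57; -0.95 to -0.21) and Sema7a with Plxnc1 (-0.45; -0.81 to -0.34). Efnb1 with Ephb2 was at -0.44 (-0.84 to 0.06).

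**Figure D5:**
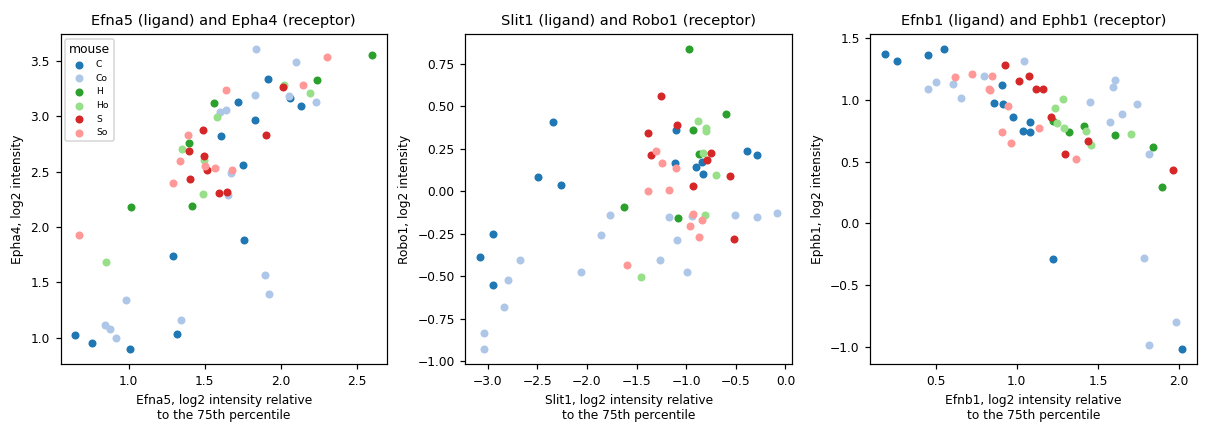
Log2 intensities relative to the 75th percentile of a ligand (x axis) and a receptor (y axis) in the 61 fractions, coloured by mouse. Efna5 and Epha4 rise together (r = 0.77), Slit1 and Robo1 do so less (r = 0.54), and Ephb1 falls as Efnb1 rises (r = -0.67).

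Of 39 other genes of these pathways, 35 were tested, 3 had no named probe, and Rgmb was not detected. The F-test called 27 of the 35, beside 61.3% of all detected probes. Anteriorly 15 were higher and 8 lower (20.2% and 27.5% of all detected probes), and in the middle 14 and 4 (15.3% and 19.9%). Ventrally 4 were higher and 7 lower (8.47% and 5.81%), and at the midline 8 and 9 (10.6% and 9.01%). Ngef (ephexin), an exchange factor downstream of EphA receptors, was higher anteriorly (2.49), in the middle (1.29) and laterally (midline difference -0.89). Chn1, a Rac GTPase-activating protein that acts below Epha4, moved likewise (1.61, 1.23 and -0.87), and had the largest F of the list (57.6). Its relative Chn2 was lower anteriorly (-2.27), in the middle (-1.23) and ventrally (-0.98). The adhesion molecule Cntn2 was lower anteriorly (-1.55) and higher at the midline (0.74). Dcc, the attractive netrin receptor, was 2.05 higher anteriorly but well above background in only 21 fractions, and the neuropilin Nrp2 in only 2. The netrin-G ligands differed at the midline, where Ntng1 rose (0.71) and Ntng2, well above background in 29 fractions, fell (-1.29).

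Second probes of 19 genes correlated with the first at r between 0.16 and 0.97 (median 0.73) over the 61 fractions. Of the 15 genes whose first probe was called for anterior minus posterior, 14 had the same sign by the second. The exception was Sema3f, at 0.42 by the first probe and -0.01 by the second. Calls of the first probe that the second did not make were those of Efnb2, Sema6c and Sema6d in the F-test, Sema3f, Sema5a and Unc5d for anterior minus posterior, Sema6c and Sema6d for middle minus ends, Epha6, Sema5b, Sema6a and Sema6d for ventral minus dorsal, and Efnb2, Epha6, Sema3a, Sema6d and Unc5d for midline minus outer. The probes were least alike for Sema6c (0.16), Sema6a (0.18), Sema4d (0.26) and Plxnb1 (0.30).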

How the data were processed

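RNA of 61 brain fractions was hybridised to Agilent single-colour arrays. The authors deposited Agilent Feature Extraction 9.1 files with processed (background-subtracted) intensity per spot, and a table of 36558 probes that follows these values up to a constant per array. Spots of a probe were averaged without control spots (43379 spots, none saturated), and log2 intensity minus the array's 75th percentile was used. Probes were named through RefSeq identifiers in GRCm38.p6 tables (22951 probes). The 28 pairs follow the study's table of partners, chosen there by correlation on these arrays; the 5 unpaired fractions entered profiles and correlations only. Pairs were compared with limma 3.58.1 in R 4.3.3 (moderated F and contrasts; Benjamini-Hochberg over 36573 probes well above background on at least 1 array; threshold 0.05), after a test on simulated data. Named were the 8 genes with the largest F, up to 4 highest and 4 lowest calls per comparison and the 3 smallest F; others are given as family members. Genes and lists were chosen with earlier results of these data known. One marker each of the oligodendrocyte and isocortex lists is not reported here and was left out of the lists. Fractions of 1 mouse are not separate animals. The p-values rest on 1 spread between partner fractions per probe, pooled over the 28 pairs of all 3 planes. They treat the fractions of a mouse as independent, so they may be too small. Mouse paired the samples: deviations within a mouse correlated (median r = 0.278 over 129 combinations; -0.0255 over 249 between mice). Scan days (5) and slides (16) mostly followed mouse and position. The number of arrays limits the precision.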

Additional observations from a re-analysis of the deposited data

How the results depend on the processing

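The same side of the threshold and the same direction were kept in 594 of 643 values of the 43 named results under the alternatives, none changed direction, and 40 of 43 held without any 1 array. Counts of genes called stayed within 1.5 times under median scaling, the authors' table, normexp with quantile normalization, either filter on dim probes, no moderation, slide as a random block and second probes. The exceptions follow. The F-test called 12 genes with horizontal pairs alone (12.6% of all detected probes) and 8 with sagittal pairs alone (6.59%). Leaving out 1 array, it called 47 to 50, beside 21561 to 22767 of 36573 probes. Anterior minus posterior had 15 calls with slide as a fixed block, beside 9.77% of probes. Leaving out 1 array, it had 40 to 44, beside 16431 to 17499 of 36573 probes. Middle minus ends had 16 when fractions were paired by label number, beside 12.9% of probes. Leaving out 1 array, it had 33 to 36, beside 11443 to 13004 of 36573 probes. Ventral minus dorsal had 23 with mouse as a replicate block (27.2% of probes) and with scan day as a block (29.0%). It had 6 with slide as a fixed block (4.42%), and 12 to 17 leaving out 1 array (3218 to 5396 of 36573 probes). Midline minus outer had 14 at an adjusted p under 0.01 (13.1% of probes), 12 when paired by label number (11.0%) and 15 with narrower groups (13.8%). Leaving out 1 array, it had 14 to 26, beside 5622 to 7340 of 36573 probes, with 14 without S10. Right minus left had 1 with mouse as a replicate block, 1 with scan day and 4 with slide as a fixed block, and 0 to 2 leaving out 1 array (1 without S3 or S4, 2 without S10). Median scaling moved the median of all probes from -0.10 to 0.05 for anterior minus posterior and from 0.01 to -0.10 for midline minus outer, so small differences there are relative to the scaling. The mouse block changed the count by over 1.5 times for ventral minus dorsal and right minus left alone. The causes were not tested. Genes with dim probes (Ntn1 above all) are limited by background.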
